A study of Nothobranchius furzeri with 168 samples.

Results

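The 80 genes described here were lower in old than in young male turquoise killifish in both brain and skin, and they were picked for that from 26739 gene IDs. For each gene, the group mean of log2(CPM + 1) in older males was subtracted from that in day 35 males, where CPM is the count scaled to 1000000 counts per library. This gave 4 decreases, from day 35 to day 147 in the strain GRZ-D and from day 35 to day 287 in the strain MZM-0403, each in brain and in skin, and the 80 genes with the largest smallest decrease were kept. These 4 decreases chose the genes, so they are described without a test. All tests below compare fish outside those groups, although the groups share the estimate of the spread. The deposited IDs are not paired with gene names, and 0 of them were found among the RefSeq genes of NfurGRZ-RIMD1. The genes are therefore described by their levels and by the tissue in which they were higher, with no function and no cell type.

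Nothobranchius furzeri is an annual fish of temporary African ponds that grows, matures and ages within months, and it is used to study ageing in vertebrates. GRZ-D is described by the submitters as short-lived, and MZCS-0403 and MZM-0403 as longer-lived. As background, the brain of an adult fish goes on making new cells, a process known to decline with age in killifish, and fish skin renews its epidermis and lays down scales and collagen-rich matrix while the animal grows.

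RNA from the brain and the skin of 84 fish gave 168 libraries, 1 per tissue and fish, with 12376397 to 41254724 counts each. The males of GRZ-D were sampled at day 21 (8 fish), 35 (6), 49 (6), 100 (7) and 147 (6). The MZCS-0403 males were sampled at day 21 (6 fish), 39 (4), 147 (3) and 287 (2), and the MZM-0403 males at day 21 (6), 35 (5) and 287 (6). Females came from GRZ-D at day 49 (3 fish), from MZCS-0403 at day 147 (1), 217 (5) and 287 (5), and from MZM-0403 at day 147 (5). No treatment or transgene is given for any group, and the replicates are different fish. Within a tissue, p-values set a difference between groups against the spread between fish, which was estimated over all groups. In 8 fish the library labelled brain correlated better with the day 21 skin profile and the library labelled skin with the day 21 brain profile, with r of at least 0.954 to the other tissue and at most 0.568 to the labelled one. They are all 6 GRZ-D males of day 49, 1 GRZ-D female of day 49 and 1 MZCS-0403 female of day 287. Their 16 libraries were left out, and the results that move when they are kept as labelled are given. None of these fish belongs to the groups that chose the genes.

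The smallest of the 4 decreases ran from 3.05 on the log2 scale for the first gene to 0.75 for the last, with a median of 0.93. At the edge of the set the 79th gene had 0.754, the 80th 0.751, the 81st 0.747 and the 82nd 0.738, so the boundary falls within a continuous range. The median decrease of the 80 genes was 1.41 in GRZ-D brain, 1.39 in GRZ-D skin, 1.96 in MZM-0403 brain and 1.57 in MZM-0403 skin. The smallest decrease was the one in GRZ-D skin for 31 genes, GRZ-D brain for 25, MZM-0403 brain for 13 and MZM-0403 skin for 11. In all, 2559 of the 26739 genes had 4 decreases above 0. The 80 genes all passed the filter on low counts in both tissues, where 23016 genes were tested in brain and 23157 in skin.

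Most of these genes were far more abundant in skin than in brain. In the 6 MZCS-0403 males of day 21, which took no part in the choice, 54 of the 80 genes were lower in brain than in skin by edgeR's quasi-likelihood test at an adjusted p under 0.05, and 12 were higher in brain. Over all 20076 genes tested there, 36.6% were lower and 41.9% higher in brain. The remaining 14 genes did not pass the test in either direction. This test had no term for the fish, although both tissues came from the same 6 fish. With such a term the median difference of the 80 genes was -4.88, beside -4.94 without it. The 54 skin-higher genes had a median difference of -6.19 on the log2 scale (brain minus skin), and 42 of them were over 16-fold higher in skin. The other 26 genes had a median difference of 0.57 and ran from -0.75 to 4.35. With library totals in place of TMM scaling (TMM is edgeR's scaling of library sizes), the median of all genes shifted by 0.90 and 22 of the 80 genes were higher in brain. This division into 54 skin-higher genes and 26 others was made after the data were seen, and it orders the results that follow.

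The 80 genes took a large share of the skin RNA of young fish. In the skin of MZCS-0403 males they held 28.5% ± 3.84 (SD, n = 6) of all counts at day 21, 19.7% ± 5.06 (SD, n = 4) at day 39, 4.62% ± 0.459 (SD, n = 3) at day 147, and 5.35% and 2.59% in the 2 libraries of day 287. The skin of GRZ-D males gave 28.5% ± 3.92 (SD, n = 8) at day 21 and 12.9% ± 2.63 (SD, n = 7) at day 100. The highest skin library of day 147 in MZCS-0403 males, at 5.15%, lay below the lowest of day 39, at 13.1%. The 5 most abundant of the genes made up 65.6% of that share in MZCS-0403 skin at day 21, when 28 of the 80 were above 1000 CPM on average. In brain the 80 genes held between 0.137% and 1.58% of the counts of the libraries of day 21, day 39 or day 100 and later that took no part in the choice. Because these genes hold so much of the skin counts, levels in CPM of all other skin genes depend on them, and the tests use TMM-scaled library sizes. In bulk tissue, fewer cells of a type and less RNA per cell cannot be told apart.

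**Figure D1:**
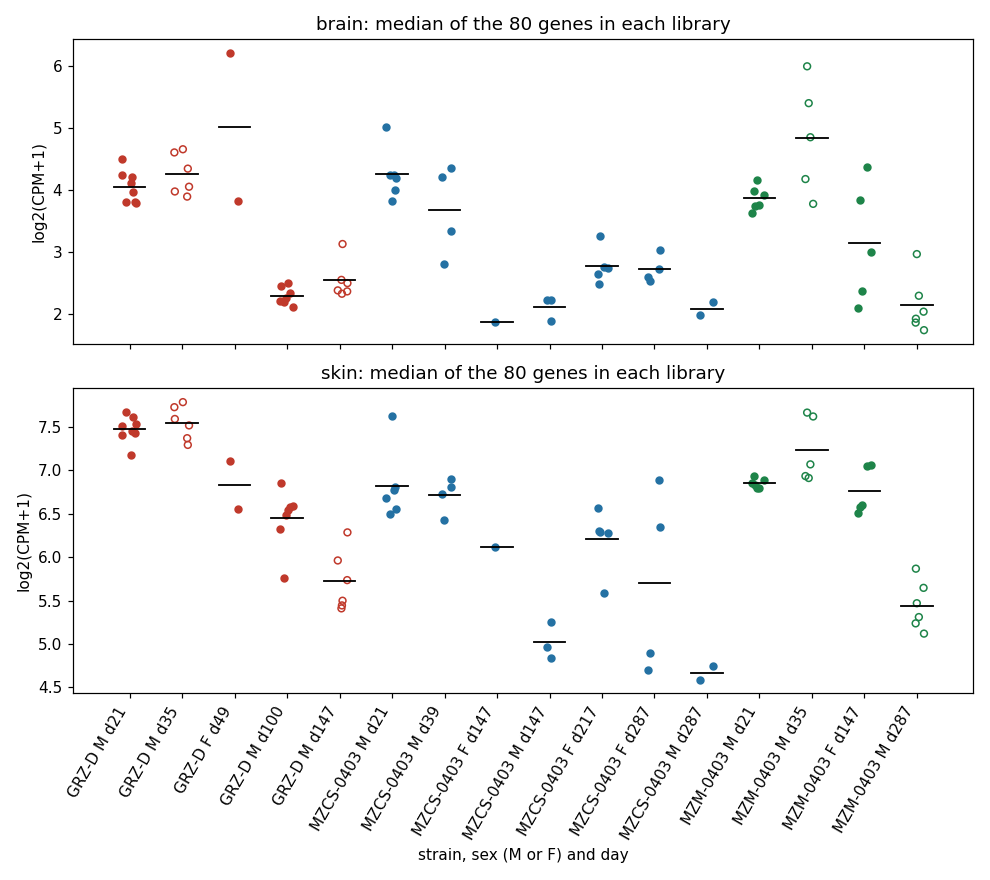
Median of log2(CPM + 1) over the 80 genes in each library of brain (top) and skin (bottom), by strain, sex (M or F) and day; each point is 1 library, open points are the groups that chose the genes, and bars are group means. In MZCS-0403 males, which took no part in the choice, brain libraries sit between 2.81 and 4.35 at day 39 and between 1.89 and 2.22 at day 147.

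The genes fell with age in MZCS-0403 males, the strain that the choice left out. The median over the 80 genes was 4.20, 2.81, 3.33 and 4.35 on the log2(CPM + 1) scale in the 4 brain libraries of day 39, and 2.22, 2.22 and 1.89 in the 3 of day 147. In skin it was 6.73, 6.43, 6.80 and 6.90 at day 39 and 4.84, 4.96 and 5.26 at day 147. The ages did not overlap in either tissue, and the brain libraries of day 39 were spread more widely than the skin libraries. Between these ages 57 of the 80 genes were lower in brain at day 147 and 0 were higher by edgeR's quasi-likelihood test, against 21.4% of all genes lower and 18.6% higher. In skin 48 were lower and 1 was higher, against 19.0% of all genes lower and 18.5% higher. The median log2 fold change of the 80 genes was -1.81 in brain and -1.62 in skin, beside -0.03 and 0.11 over all genes tested. Every one of the 80 had a negative fold change in brain, and so did 64 in skin. At an unadjusted p under 0.05, 0 genes were higher in brain, and DESeq2 also called 0 higher there.

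Taken gene by gene, 31 of the 80 were lower at day 147 in both tissues of MZCS-0403 males, 74 were lower in at least 1 tissue and 6 in neither. The matching shares of all genes over both tissues were not counted, so these numbers only describe the set. Counted without a model, all libraries of day 147 lay below all libraries of day 39 for 60 genes in brain and 53 in skin, where this held for 16.7% and 15.8% of all genes tested. All libraries of day 147 lay above all of day 39 for 0 of the 80 genes in brain and 5 in skin. How often this upward separation occurred over all genes tested was not counted, so both upward counts are descriptions only. Keeping the libraries that are at odds with their tissue label lowered the count in skin from 48 to 31. It also raised edgeR's estimate of the spread between fish (biological coefficient of variation) from 0.269 to 0.331 in skin and from 0.147 to 0.237 in brain.

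The 26 genes that were not higher in skin nearly all fell in the brain of these males. Of them, 25 were lower at day 147 than at day 39 in brain, with a median log2 fold change of -1.30, and 7 were lower in skin, with a median of 0.08. Over all genes tested, 21.4% were lower in brain and 19.0% in skin, with medians of -0.03 and 0.11. The difference between the tissues was not tested. Of the 54 skin-higher genes, 32 were lower in brain (median -2.18) and 41 were lower in skin (median -1.98), and 1 was higher in skin. In brain the log2 fold changes of the 26 genes ran from -7.38 to -0.30 and those of the 54 from -5.79 to -0.41, and in skin 12 of the 26 were negative.

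**Figure D2:**
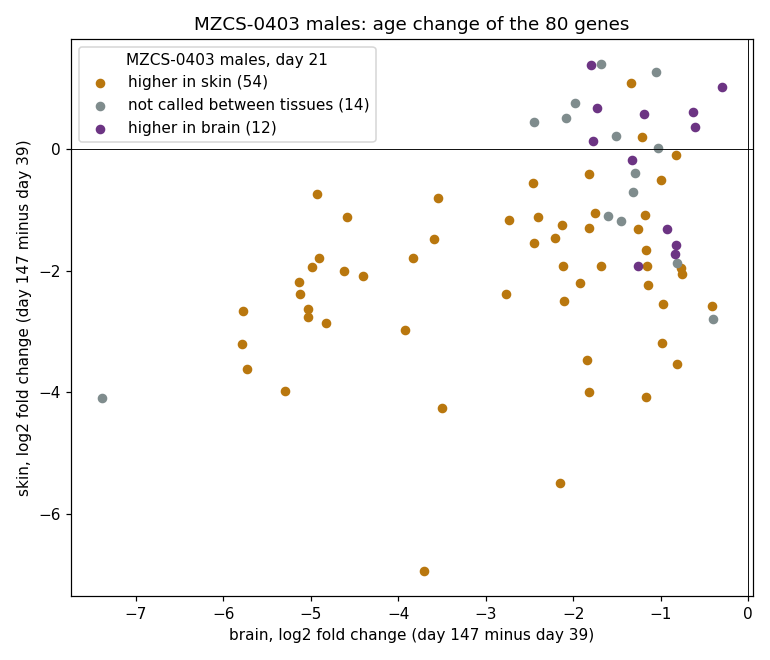
Log2 fold change from day 39 to day 147 of MZCS-0403 males in brain (x axis) and skin (y axis), 1 point per gene, coloured by the tissue in which the gene was higher at day 21. All 80 points lie below 0 in brain, with 57 called lower there and 48 in skin.

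The later age of the same strain rests on 2 males of day 287 and shares the 4 day 39 males with the comparison above. In brain 48 of the 80 genes were lower at day 287 than at day 39 and 0 were higher, against 17.4% of all genes lower and 15.2% higher. In skin 37 were lower and 0 higher, against 6.46% of all genes lower and 9.01% higher. At an unadjusted p under 0.05 the number of higher genes was 0 in each tissue, as it was with DESeq2. Every gene had a negative fold change in both tissues, with medians of -2.09 in brain and -1.59 in skin. In brain 22 of the 26 genes not higher in skin were among those lower, and 26 of the 54 skin-higher genes. In skin 7 of the 26 and 30 of the 54 were lower. The 26 genes had a median log2 fold change of -1.38 in brain and -1.28 in skin at this age, unlike at day 147. Without the male numbered 2 of day 287, which leaves 1 fish at that age that is assumed to vary like the other groups, 29 genes were lower in brain and 7 in skin. Keeping the libraries at odds with their label gave 30 and 17.

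In the skin of MZCS-0403 males, some of the fall came before day 39. From day 21 to day 39, MZCS-0403 males lowered 21 of the 80 genes in brain and raised 4, against 22.0% of all genes lower and 25.8% higher, so the share of members lower is near that of all genes. In skin 28 were lower and 1 higher, against 16.4% of all genes lower and 15.7% higher. The 26 genes not higher in skin made up 17 of the 21 in brain and 16 of the 28 in skin. The division that sets these 26 apart used the same day 21 libraries, so the 17 and 16 are descriptions. The day 39 males are the older group here and the younger group in both comparisons above. In GRZ-D males the day 21 mean lay below the day 35 mean for 59 of the 80 genes in brain and 49 in skin. In MZM-0403 males this held for 56 genes in brain and 55 in skin. Those counts share the day 35 fish with the choice, which kept genes that were high at that age. The choice itself thus favours a day 21 mean below that of day 35. The counts are descriptions and cannot be set against those of MZCS-0403 males.

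The fall was also seen in GRZ-D males between day 21 and day 100, 2 ages that the choice did not use. The median over the 80 genes in brain had its lowest, middle and highest value at 3.79, 4.04 and 4.50 on the log2(CPM + 1) scale at day 21 (8 fish), and at 2.11, 2.26 and 2.49 at day 100 (7 fish). In skin these values were 7.18, 7.48 and 7.67 at day 21 and 5.76, 6.54 and 6.85 at day 100. The ages were apart in both tissues. In brain 61 genes were lower at day 100 and 0 higher, against 22.5% of all genes lower and 24.4% higher. In skin 65 were lower and 0 higher, against 24.3% lower and 23.2% higher. At an unadjusted p under 0.05 there were 0 higher genes in each tissue, and DESeq2 called 0 as well. The median log2 fold change was -1.91 in brain and -1.40 in skin. All 26 genes not higher in skin were lower in brain and 20 of them in skin, beside 35 and 45 of the 54 skin-higher genes. With no model, all day 100 libraries lay below all day 21 libraries for 54 genes in brain and 27 in skin, against 12.1% and 6.57% of all genes tested.

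Placed between the GRZ-D ages that chose the genes, day 100 stood close to the oldest age in brain. The day 100 mean was below the day 35 mean for all 80 genes in brain, and at or below the day 147 mean for 56 of them. In the median gene, 110% of the fall from day 35 to day 147 had been passed by day 100. In skin 77 genes were below their day 35 mean, of which 44 lay between the ages and 33 at or below day 147, and the median gene had passed 79.8% of the fall. These shares are descriptions, since they share the day 35 and day 147 fish with the choice.

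**Figure D3:**
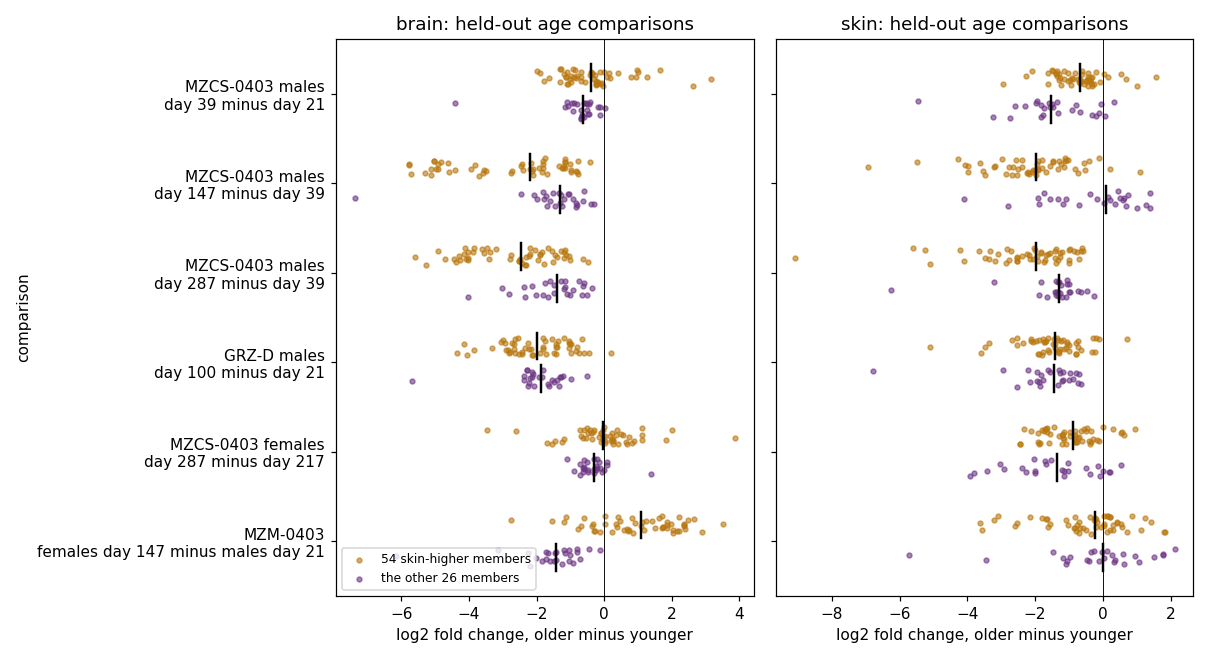
Log2 fold change of each of the 80 genes in 6 age comparisons outside the choice, in brain (left) and skin (right), with the 54 skin-higher genes and the other 26 apart and bars at the medians. In brain the 26 genes have a median of -1.88 in GRZ-D males from day 21 to day 100 and of -1.42 in MZM-0403 between males of day 21 and females of day 147, where the 54 skin-higher genes have 1.10.

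MZCS-0403 females of day 217 and day 287, both old ages, differed in 3 genes lower and 1 higher of the 80 in brain, near the 4.11% lower and 3.56% higher of all genes. In skin 34 were lower at day 287 and 1 was higher, against 14.3% of all genes lower and 15.5% higher, with a median log2 fold change of -1.12. The difference between the tissues was not tested. The skin medians over the 80 genes were 5.59, 6.27, 6.29, 6.30 and 6.56 on the log2(CPM + 1) scale at day 217 and 4.70, 4.89, 6.35 and 6.89 at day 287. The 4 females of day 287 thus formed 1 pair below and 1 pair within or above the range of day 217. Their skin libraries gave the 80 genes 8.74% to 13.1% of the counts, and those of day 217 gave 12.6% to 25.3%. Leaving out a single fish moved the 3 lower genes in brain to between 0 and 5; the lowest count came without female 3 of day 217, or female 3 or 5 of day 287, and the highest without female 5 of day 217.

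The female brains of MZCS-0403 came from day 147 or later, with no young females to set them against. Their median over the 80 genes was 1.87 in the only female of day 147, 2.48 to 3.25 in the 5 of day 217 and 2.53 to 3.04 in the 4 of day 287, beside 1.98 and 2.19 in the 2 males of day 287. The brain medians of the females of day 217 and day 287 overlapped the 2.81 to 4.35 of the day 39 males. In skin the female of day 147 had a median of 6.12, above the 4.84 to 5.26 of the 3 males of that age. The sexes were not tested against each other, and a group of 1 fish has no replicate.

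The MZM-0403 females of day 147 were compared with males of day 21, so sex and age change together and cannot be told apart. In brain 29 of the 80 genes were lower in these females and 17 were higher, against 26.0% and 30.8% of all genes. In skin 18 were lower and 13 higher, against 22.0% and 25.6%. In brain 24 of the 26 genes not higher in skin were lower and 0 higher, whereas 5 of the 54 skin-higher genes were lower and 17 higher. The difference between these kinds of gene was not tested. At an unadjusted p under 0.05 there were 22 higher genes among all 80 in brain, and DESeq2 called 20. Without the female numbered 1, 2 of the 80 genes were higher in brain. In skin, 8 were higher without the female numbered 2.

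That female numbered 1 had a brain library rich in other skin genes. A yardstick was made of the 1370 genes outside the set that were over 16-fold higher in skin than in brain in MZCS-0403 males of day 21. Their sum was 50901 CPM in this brain library and 6111, 8406, 4972 and 4772 CPM in the brains of the other 4 females, beside 3455 to 4222 CPM in the 6 males of day 21. The 54 skin-higher members summed to 13568 CPM in the same library and to 5037, 2143, 974 and 927 CPM in the other 4 females. The 26 other members showed no such rise, at 858 CPM in female 1 and 981 to 1306 CPM in the rest. In the test against day 21 males, 939 of the 1345 yardstick genes that passed the filter were higher in the female brains and 21 were lower. How far this yardstick accounts for the skin-higher members was not tested.

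**Figure D4:**
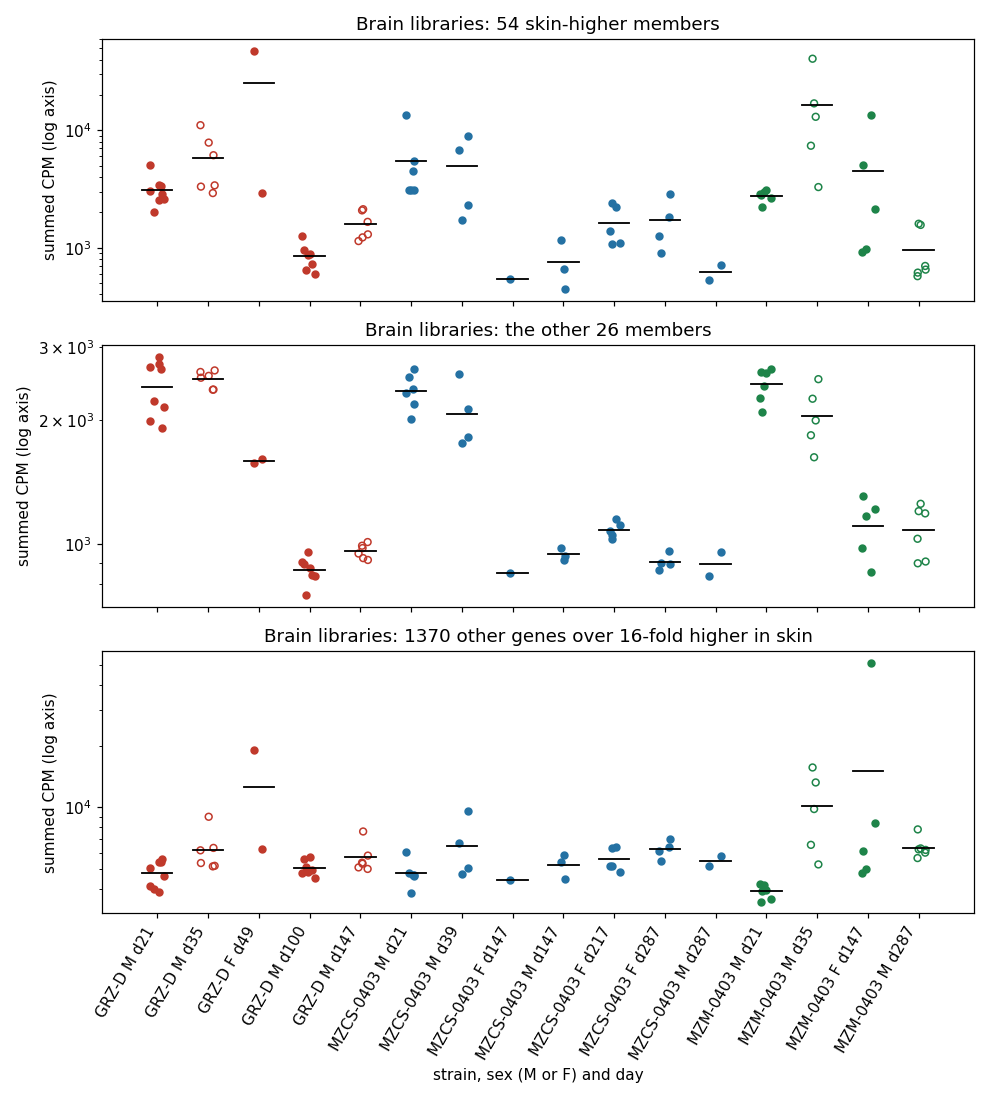
Summed CPM in each brain library (log axes) of the 54 skin-higher genes, the other 26 genes, and the 1370 genes outside the set that were over 16-fold higher in skin, by strain, sex and day; open points are the groups that chose the genes and bars are group means. The 26 genes stand between 1754 and 2837 CPM at day 21 or 39 and between 752 and 1306 CPM from day 100 on in groups outside the choice, whereas the skin-higher genes overlap between those ages.

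The 26 genes not higher in skin separated young from old brain libraries by their sum. Their sum in brain was 2348 CPM ± 236 (SD, n = 6) in MZCS-0403 males of day 21, 2395 CPM ± 367 (SD, n = 8) in GRZ-D males and 2436 CPM ± 229 (SD, n = 6) in MZM-0403 males of the same age, so the 3 strains differed by less than their spread. At older ages it was 944 CPM ± 31.4 (SD, n = 3) in MZCS-0403 males of day 147, 866 CPM ± 65.2 (SD, n = 7) in GRZ-D males of day 100 and 1106 CPM ± 182 (SD, n = 5) in MZM-0403 females of day 147. Over the groups outside the choice, the 24 brain libraries of day 21 or 39 ran from 1754 to 2837 CPM and the 27 of day 100 or later from 752 to 1306 CPM, with no overlap. A single gene supplied 1315 CPM of the 2348 CPM in MZCS-0403 males of day 21. The remaining 25 genes alone gave 578 to 1274 CPM in the younger libraries and 328 to 496 CPM in the older ones, again with no overlap. For the sum of all 26 genes, the 2 GRZ-D females of day 49 that were kept lay between the younger and older ranges, at 1603 and 1568 CPM. Without the single most abundant gene these females had 665 and 648 CPM, within the younger range of the remaining 25 genes.

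In skin the same 26 genes were scarce and did not separate the ages when strains and sexes were pooled. Their sum ran from 167 to 476 CPM in the 24 younger libraries outside the choice and from 64.9 to 757 CPM in the 27 older ones. MZCS-0403 males had 319 CPM ± 105 (SD, n = 6) at day 21, 242 CPM ± 34.7 (SD, n = 4) at day 39 and 114 CPM ± 18.2 (SD, n = 3) at day 147. The MZM-0403 females of day 147, at 388 CPM ± 217 (SD, n = 5), lay above the day 21 males of their strain, at 226 CPM ± 60.1 (SD, n = 6), with ranges that overlapped.

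The 54 skin-higher genes varied widely between the brains of fish of one age. In the brain of MZCS-0403 males of day 39 they summed to 6746, 1720, 2309 and 8946 CPM, while the yardstick of other skin genes summed to 6658, 4695, 5065 and 9563 CPM in the same fish. The pair of fish that was high in one was high in the other. At day 147 the 54 genes gave 652, 1155 and 444 CPM and the yardstick 4478 to 5837 CPM. The yardstick genes had a median log2 fold change of -0.32 in brain between these ages, with 142 of 1345 lower and 49 higher, beside the median of -2.18 for the 54 genes. In GRZ-D brain from day 21 to day 100 the yardstick had a median of -0.01, with 111 lower and 157 higher, beside -2.00 for the 54 genes. In both strains the median of the 54 genes was lower than that of the yardstick in brain. The same held in skin, at -1.98 beside -0.10 in MZCS-0403 males and -1.40 beside 0.05 in GRZ-D males. The choice kept genes that fell in GRZ-D and MZM-0403 males, and the yardstick holds skin genes that it left out. A lower median of the 54 genes is thus favoured by the choice, and these comparisons are descriptions. The part of the 54 genes and the yardstick in each other's values was not tested. One GRZ-D female of day 49 had 47616 CPM of the 54 genes in brain, with 19041 CPM of the yardstick, where the other had 2935 and 6244 CPM.

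In the brain groups behind the choice, single libraries supplied much of the summed CPM of the skin-higher genes. The choice itself used means of log2(CPM + 1), in which 1 high library weighs less than in summed CPM. In the brain of MZM-0403 males of day 35, a group that chose the genes, 1 of the 5 libraries supplied a median of 53.2% of a skin-higher gene's summed CPM, and more than 50% for 33 of the 54. For the other 26 genes this median was 26.6%, and no gene had over 50% from 1 library. The fish numbered 13 had the highest level of 37 of the 80 genes, and its brain held 40750 CPM of the 54 skin-higher genes beside 3284 to 16963 CPM in the other 4. In GRZ-D brain of day 35, with 6 libraries, the medians were 38.0% and 19.7%, and 8 genes had over 50% from 1 library.

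The 2 groups of genes also varied separately between fish of one age. After the group mean was taken from each gene, over 45 libraries of 8 groups outside the choice, the median correlation between pairs of the 26 genes was 0.645 in brain and 0.641 in skin. Between pairs of the 54 skin-higher genes it was 0.468 in brain and 0.179 in skin, and between a gene of one group and a gene of the other -0.07 in brain and -0.14 in skin. Pairs of yardstick genes had a median of 0.396 in brain and 0.0464 in skin, and pairs of a skin-higher gene of the set and a yardstick gene 0.276 in brain and -0.102 in skin. The pairs share libraries, depth and scaling, so these values only describe the libraries.

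At day 21 the share of the 80 genes called different between GRZ-D and MZCS-0403 males was below that of all genes in brain and closer to it in skin. GRZ-D males of that age were lower than MZCS-0403 males for 5 of the 80 genes in brain and higher for 1, against 17.0% of all genes lower and 17.2% higher. DESeq2 and a fit of only the libraries compared each gave 13 lower. At an unadjusted p under 0.05 in edgeR's test, 22 were lower and 3 higher in brain, beside 4886 and 4861 of all 23016 genes. The few calls thus do not show that the strains were alike. In brain 52 of the 80 genes had a negative fold change, with a median of -0.44. Among the 54 skin-higher genes 41 were negative there, with a median of -1.14. In skin 37 of the 80 were negative, with a median of 0.10. In skin 14 were lower and 12 higher, against 21.9% and 19.8% of all genes. All 12 that were higher in GRZ-D skin were skin-higher genes, and 7 of the 14 that were lower came from the other 26. The MZCS-0403 males compared here also made the division into 54 and 26, so counts by that division are descriptions.

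Of the genes that fell, 26 met the conditions for naming, and the pair with the largest smaller fall is given. The conditions were a lower call at day 147 than at day 39 in both tissues of MZCS-0403 males, without overlap between libraries. At least 5 CPM on average at day 39 was also required. The conditions used the same libraries as the tests between these ages, so those values only describe the pair. The share of all genes that met the conditions was not counted. Nfu_g_1_016625, the 8th of the set and a skin-higher gene, had 879, 892, 1121 and 1242 CPM in the 4 skin libraries of day 39 and 46.4, 58.3 and 122 CPM in the 3 of day 147. In brain it had 32.1, 0.791, 9.04 and 39.5 CPM at day 39 and 0.399, 0.740 and 0.422 CPM at day 147, so the second fish of day 39 nearly met the older fish. The log2 fold change was -3.99 (SE 0.89) in skin, with an adjusted p of 0.000269, and -5.30 (SE 1.75) in brain, with an adjusted p of 0.012, by edgeR's quasi-likelihood test. Its adjusted p in brain lay between 7.47e-05 and 0.0503 over the alternatives, the latter without the male numbered 4 of day 147. In GRZ-D males it was lower at day 100 than at day 21 in both tissues, by -2.83 (SE 0.94) in brain and -1.76 (SE 0.53) in skin, with edgeR adjusted p of 0.0108 and 0.00475. From day 39 to day 287 in MZCS-0403 males its change passed the test in neither tissue, at -3.60 (SE 1.77) in brain and -1.93 (SE 0.94) in skin with edgeR adjusted p of 0.114 and 0.163. In MZCS-0403 females from day 217 to day 287 it also passed in neither tissue, at -1.55 (SE 1.30) in brain and 0.00 (SE 0.66) in skin with edgeR adjusted p of 0.580 and 1.

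Nfu_g_1_013874, the 14th of the set and also skin-higher, had 105, 24.4, 164 and 12.7 CPM in skin at day 39 and 0.485, 0.191 and 1.25 CPM at day 147. In brain it had 8.16, 4.82, 1.59 and 6.75 CPM at day 39 and 0.109, 0.264 and 0.844 CPM at day 147. The ages did not overlap in either tissue, which the conditions for naming required. The day 39 skin libraries differed among themselves by over 10-fold. The log2 fold change was -6.94 (SE 1.71) in skin and -3.70 (SE 1.33) in brain, with edgeR adjusted p of 0.000869 and 0.0215. In brain the adjusted p lay between 0.00254 and 0.0933 over the alternatives, the latter without the male numbered 1 of day 147. In the skin of GRZ-D males from day 21 to day 100 its change of -1.25 (SE 0.81) did not pass the test, with an edgeR adjusted p of 0.206. In their brain it changed by -2.72 (SE 0.795), with an edgeR adjusted p of 0.00348 that rose to 0.446 with a replicate block. From day 39 to day 287 in MZCS-0403 males it changed by -4.44 (SE 1.71) in brain and -5.10 (SE 1.78) in skin. The edgeR adjusted p values there were 0.0386 and 0.0406, with 2 fish at day 287. Its remaining age tests did not pass.

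**Figure D5:**
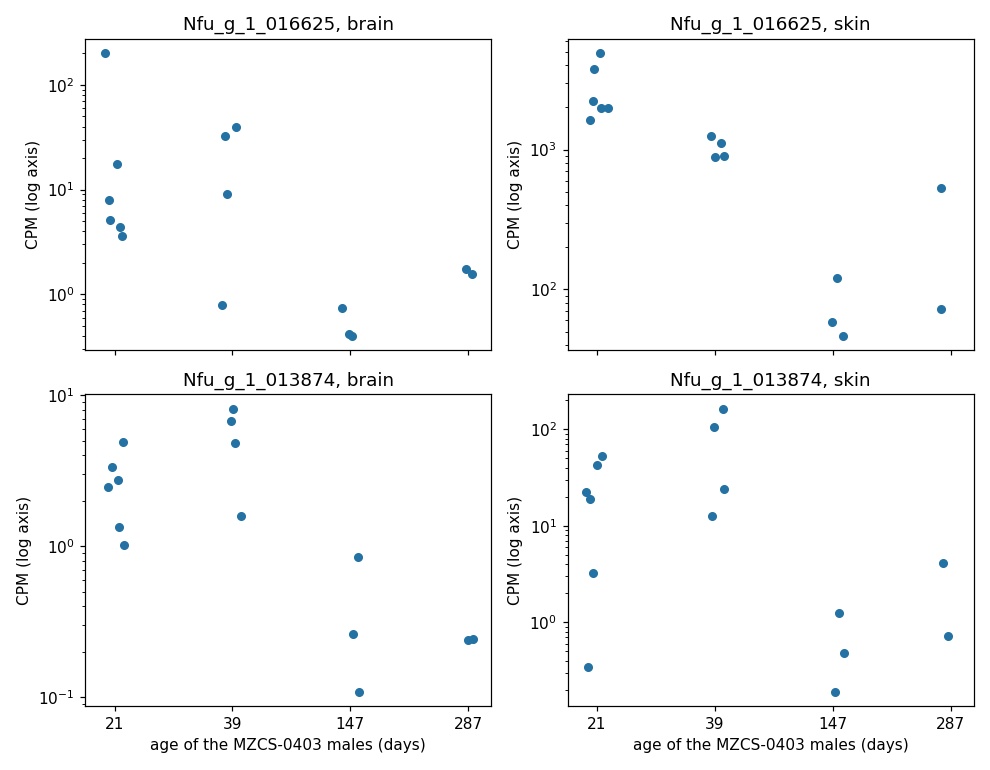
CPM (log axes, each panel with its own range) of the genes Nfu_g_1_016625 and Nfu_g_1_013874 in every brain and skin library of MZCS-0403 males, at 4 ages placed at equal steps. In skin, Nfu_g_1_016625 stands between 879 and 1242 CPM at day 39 and between 46.4 and 122 CPM at day 147.

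Over 12 tests (6 age comparisons in each of 2 tissues), 31 of the 80 genes were higher in the group of older fish at least once, against 83.5% of the 22212 genes tested in both tissues. Of the 38 calls behind this count, 30 came from MZM-0403 females of day 147 against males of day 21, where sex and age cannot be told apart and where the brain count fell from 17 to 2 without 1 female. The other 8 calls, in 10 tests, were of 7 genes. In those 10 tests, 76.3% of the genes tested in both tissues were higher at least once. Nfu_g_1_014209, a skin-higher gene and the 65th of the set, was higher in MZM-0403 females of day 147 than in males of day 21 in both tissues. In brain it had 1185, 362, 86.5, 16.8 and 17.8 CPM in the 5 females and 10.8 to 45.4 CPM in the 6 males. The groups overlapped, with 3 females above all males, and the highest value came from the female whose brain was rich in other skin genes. In skin all 5 females, at 9054 to 27299 CPM, were above all 6 males, at 2371 to 5030 CPM. The log2 fold change was 3.53 (SE 0.92) in brain and 1.85 (SE 0.35) in skin, with edgeR adjusted p of 0.000837 and 1.07e-05. Tests in MZCS-0403 fish gave falls of the same gene. In male brain it changed by -4.92 (SE 1.36) from day 39 to day 147, with an edgeR adjusted p of 0.00257. From day 39 to day 287 it changed by -4.04 (SE 1.54) in brain and -1.92 (SE 0.54) in skin. The edgeR adjusted p values there were 0.0368 and 0.00946. In female skin it changed by -1.74 (SE 0.40) from day 217 to day 287, with an edgeR adjusted p of 0.000484. Its remaining age tests did not pass.

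Nfu_g_1_005892, the 50th of the set and skin-higher, was higher in the brain of MZCS-0403 females at day 287 than at day 217, at 2.47, 6.24, 17.6 and 2.24 CPM against 0.237 to 0.813 CPM in 5 females. The ages did not overlap, and the log2 fold change was 3.87 (SE 0.97), with an edgeR adjusted p of 0.00544 that rose to 0.0657 without the female numbered 5 of day 287. It was also higher in the brain of MZCS-0403 males at day 39 than at day 21, by 2.63 (SE 0.86) with an edgeR adjusted p of 0.00931. Without the male numbered 1 of day 39 that change was 0.04, with an edgeR adjusted p of 0.977. That second rise had 22.1 CPM in 1 of the 4 day 39 brains and 0.242 to 2.91 CPM in the other 3, beside 0.241 to 2.56 CPM at day 21, so 2 of the 4 day 39 values lay within the younger range and 2 above it. From day 39 the gene fell in the brain of these males, by -4.98 (SE 1.34) to day 147 and -4.08 (SE 1.485) to day 287. The edgeR adjusted p values were 0.00189 and 0.028, and 0.129 and 0.429 without the male numbered 1 of day 39. In GRZ-D skin from day 21 to day 100 it changed by -1.33 (SE 0.54), with an edgeR adjusted p of 0.0359. With a replicate block that adjusted p was 0.719. Its remaining age tests did not pass.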

How the data were processed

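Gene counts of 168 libraries from 84 fish were deposited by the authors as raw whole numbers in 1 table. Per the submitters' processing notes, bcl2fastq 1.8.4, STAR 2.5.1b and featureCounts 1.5.0 were used; build, annotation and strand setting are not given in the sources used here. The 80 genes and all lists, groupings and tests were chosen with earlier results of these data known. Gene lists and cell type markers use symbols and could not be applied to the IDs. Levels are CPM by library total. Tests were run in R 4.3.3 with edgeR 4.0.16: TMM scaling, the default filter by group at a minimum count of 10, 1 robust quasi-likelihood fit per tissue over 76 libraries, 2-sided, with Benjamini-Hochberg adjustment over all genes tested. The SE is the fold change over the square root of its F. Brain and skin of 1 fish are paired by the labels (correlation of deviations 0.0783 to 0.247, 6 fish). Scripts were tested on simulated data. Named genes were at most 2 that fell (as described) and 2 that rose. The latter had the highest number of age tests called higher, 2 of 12. That number was shared by 7 members, with ties broken by the largest single log2 fold change. Alternatives were DESeq2 1.42.0, its size factors, no filter, a replicate block, fewer or all libraries, leaving out each fish and, added after seeing the data, library totals.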

Additional observations from a re-analysis of the deposited data

Results flagged for a closer look

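In all, 6 values per library stood apart from the rest of their group by Dixon's test at the 95% level, among 72 combinations of group and measure, where chance gives about 1 in 20. In brain, the MZCS-0403 male numbered 4 of day 21 had 13499 CPM of the 54 skin-higher genes, beside 3110 to 5447 CPM in the other 5, and a median over the 80 genes of 5.02, beside 3.82 to 4.24 on the log2(CPM + 1) scale. The GRZ-D male numbered 4 of day 21 had 5086 CPM of the same 54 genes in brain, beside 2005 to 3450 CPM in the other 7. The GRZ-D male numbered 6 of day 147 had a brain median over the 80 genes of 3.13, beside 2.33 to 2.55 in the other 5. In skin, the MZCS-0403 male numbered 6 of day 21 had a median of 7.62, beside 6.50 to 6.81 in the other 5. The GRZ-D male numbered 8 of day 100 had 182110 CPM of the skin-higher genes in skin, beside 103143 to 135339 CPM in the other 6. No sum of the other 26 genes stood apart in this way.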

How the results depend on the processing

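The counts of members lower in MZCS-0403 brain at day 147 and in GRZ-D brain at day 100 stayed within 1.5 times under every alternative run, and the choice of members kept 55 to 78 of 80. Keeping all libraries as labelled gave 31 lower at day 147 in MZCS-0403 skin, and 30 (brain) and 17 (skin) at day 287. It gave 7 higher in MZM-0403 female brain, and 2 (brain) and 9 (skin) lower and 6 (skin) higher in GRZ-D at day 21. In MZCS-0403 female brain it gave 9 lower but moved the median log2 fold change of the 80 genes from -0.145 to 2.28. Genes with a negative fold change there went from 51 to 20 of the 80. It reversed Nfu_g_1_016625 and Nfu_g_1_014209 in MZCS-0403 female brain to 5.88 and 4.8 on the log2 scale. Fitting only the libraries compared gave 30 lower in brain at day 287, 6 higher in MZM-0403 female brain and 13 lower in GRZ-D brain at day 21, as did DESeq2 with 13. It called 4299 of all genes in MZCS-0403 brain at day 147 against 9219, and 1883 against 7505 at day 287. Library totals moved the median of all genes in skin by 0.14 to 0.28 in age comparisons, and gave 22 members higher in brain than in skin. A replicate block gave 43 lower in GRZ-D skin at day 100, 0 in MZCS-0403 female brain and 10 higher in MZM-0403 female brain; numbers are shared by different fish whose deviations did not all correlate (-0.323 to 0.483), so they pair no ages. Leaving out 1 fish gave 29 to 51 lower (brain) and 7 to 35 (skin) at day 287, 0 to 5 lower in MZCS-0403 female brain, and 2 to 22 (brain) and 8 to 13 (skin) higher in MZM-0403 females. Of 648 alternative values of the named genes, 589 kept direction and call, 46 lost the call, 11 gained it and 2 reversed. The causes were not tested. With 2 males at day 287 and 1 MZCS-0403 female at day 147, those ages are the least certain, and levels under 1 CPM rest on few reads.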
